A study of Mus musculus with 16 samples.

Results

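Adipokines are proteins that adipose tissue releases into the blood or its surroundings, and 8 genes encoding them were followed here, out of the 54532 genes in the deposited table. They were chosen by name: Adipoq (adiponectin), Lep (leptin), Retn (resistin), Cfd (adipsin), Rarres2 (chemerin), Apln (apelin), Angptl4 and Nampt. All 8 were measured in every library and all 8 passed the minimum of 50 mean reads in each comparison. Their levels came from RNA sequencing of whole inguinal white adipose tissue (iWAT), the fat pad under the skin of the groin, in 16 libraries from male mice that entered the experiments at 8 to 10 weeks of age. The study asked how hyaluronan (HA), a large sugar polymer of the extracellular matrix, affects gene expression in this tissue. Every mouse, controls included, received chow with 200 mg/kg doxycycline for 5 days before the tissue was taken.

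There were 4 groups of 4 libraries. Has2_TG mice carried Apn-rtTA and TRE-Has2, so that doxycycline turned on the HA synthase Has2, and PH20_TG mice carried Apn-rtTA and TRE-PH20, which did the same for the hyaluronidase PH20, encoded by Spam1. The labels call both control groups, Has2_WT and PH20_WT, wild type, but by the methods of the study they were littermates that carried Apn-rtTA alone. The rtTA in all 4 groups is driven by the promoter of Adipoq, 1 of the 8 genes, so the transgenes depend on a promoter whose own gene is among those measured. Mouse strain was not given in the sources used here. The labels number the libraries within a group but do not say that each came from a mouse of its own, so the p-values measure the spread between these libraries.

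Adiponectin circulates as multimers and is linked to insulin sensitivity, whereas leptin reports the size of the fat stores to the brain. Adipsin is complement factor D, the protease that activates the alternative complement pathway, and chemerin attracts immune cells and acts on adipocytes through the receptors Cmklr1 and Gpr1. Angptl4 inhibits lipoprotein lipase, apelin acts through Aplnr on vessels and other tissues, resistin is made mainly by adipocytes in mice, and Nampt is the rate-limiting enzyme of NAD salvage that is also found outside cells as visfatin.

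The 250 bases before the RefSeq start site are shown for Adipoq, because the promoter of this gene drives rtTA in every mouse, for Cfd and Retn, whose transcripts followed Adipoq most closely over the libraries, and for Lep, which followed Cfd and Retn least. They come from the RefSeq promoter table (GRCm38.p6), read 5′ to 3′ on the plus strand, are those of the mouse genes and not of the transgenes, and lie at chr16:23146286-23146535 for Adipoq, chr10:79890603-79890852 for Cfd, chr8:3655520-3655769 for Retn and chr6:29059971-29060220 for Lep. Capitals mark every match, on either strand, to the TATA box core TATAA, the CCAAT box CCAAT, the E-box CACGTG, the C/EBP-like motif TTNNGNAA or the nuclear receptor core AGGTCA.
Adipoq: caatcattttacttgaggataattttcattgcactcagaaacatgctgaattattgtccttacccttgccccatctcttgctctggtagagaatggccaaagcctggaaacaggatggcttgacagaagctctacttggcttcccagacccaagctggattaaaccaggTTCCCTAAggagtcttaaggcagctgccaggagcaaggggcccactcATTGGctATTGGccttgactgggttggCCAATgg
Cfd: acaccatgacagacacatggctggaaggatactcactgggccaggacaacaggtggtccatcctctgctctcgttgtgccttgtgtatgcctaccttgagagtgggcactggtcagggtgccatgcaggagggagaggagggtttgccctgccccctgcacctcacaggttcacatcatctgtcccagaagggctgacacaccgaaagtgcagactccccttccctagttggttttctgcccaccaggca
Retn: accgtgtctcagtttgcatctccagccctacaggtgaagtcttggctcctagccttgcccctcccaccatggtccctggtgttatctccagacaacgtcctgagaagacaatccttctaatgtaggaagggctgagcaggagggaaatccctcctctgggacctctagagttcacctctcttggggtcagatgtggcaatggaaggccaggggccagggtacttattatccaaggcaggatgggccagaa
Lep: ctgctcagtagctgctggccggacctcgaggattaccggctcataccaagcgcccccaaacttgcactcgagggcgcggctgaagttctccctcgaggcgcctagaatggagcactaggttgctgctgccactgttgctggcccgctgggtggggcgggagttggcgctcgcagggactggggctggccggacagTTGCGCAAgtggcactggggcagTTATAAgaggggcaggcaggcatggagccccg

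In this window Adipoq held 3 matches to CCAAT and 1 to TTNNGNAA. The Lep window held 1 match to TTNNGNAA and 2 to TATAA, which overlap each other on opposite strands. Neither Cfd nor Retn held any of the 5 motifs. Among all 32851 promoters of the table, cut to the same length, 33.8% held CCAAT, 36.8% TTNNGNAA, 22.8% TATAA, 14.0% AGGTCA and 6.02% CACGTG. The short motifs CCAAT, TTNNGNAA and TATAA are therefore common, AGGTCA is less so and CACGTG least. Of the other adipokines, Nampt held 1 match to AGGTCA and Apln held none, and Rarres2 and Angptl4 were not matched in the table.

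Sequencing depth was between 14421692 and 26751729 reads on genes per library. Levels are given as FPKM, fragments scaled to gene length and to the mapped fragments of the library, so that genes can be set against each other per length. Adipocyte markers were high in every library, with a summed level of 12 markers (Plin1, Fabp4 and others) between 4469 and 11134 FPKM. Libraries differed in other cells: the sum of 8 B cell markers (Cd79a, Ms4a1 and others) was 299 and 245 FPKM in Has2_WT1 and Has2_WT2, 317 and 118 in PH20_WT1 and PH20_WT3, and between 1.31 and 6.44 in the other 12. Of the transgenes, Has2 was at 0.417 to 0.806 FPKM in Has2_WT and 1.86 to 3.24 in Has2_TG, without overlap. It was at 0.330 to 0.897 FPKM in PH20_WT and 0.0990 to 3.32 in PH20_TG, where the highest library lay above every Has2_TG library. Spam1 had 0 reads in all 4 PH20_WT libraries and at most 12 reads in PH20_TG, where PH20_TG1 had 0, and a count of 0 allows up to 3 reads by chance. A library labelled PH20_TG is therefore not marked as such by its own transgene transcript in every case. In whole tissue, fewer cells of a type and less RNA per cell cannot be told apart.

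The adipokines spanned a wide range of levels. By mean FPKM over the 16 libraries, Cfd ranked 3 among all genes with 12898, Adipoq was at 1313, Retn at 680, Angptl4 at 194, Lep at 130, Rarres2 at 86.4, Nampt at 22.4 and Apln at 2.47. This order held in 16 of 16 libraries between neighbours, with the exceptions of Angptl4 above Lep, found in 12 libraries, and Lep above Rarres2, found in 10. The place of Lep was therefore not separated beyond its spread, while Angptl4 was above Rarres2 in every library. Together the 8 genes took between 0.753% (Has2_WT1) and 2.15% (PH20_TG3) of all reads on genes, and Cfd alone between 0.490% and 1.74%. Apln rested on the fewest reads, 82 to 271 per library, while the other 7 had at least 1449 reads in each library.

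**Figure D1:**
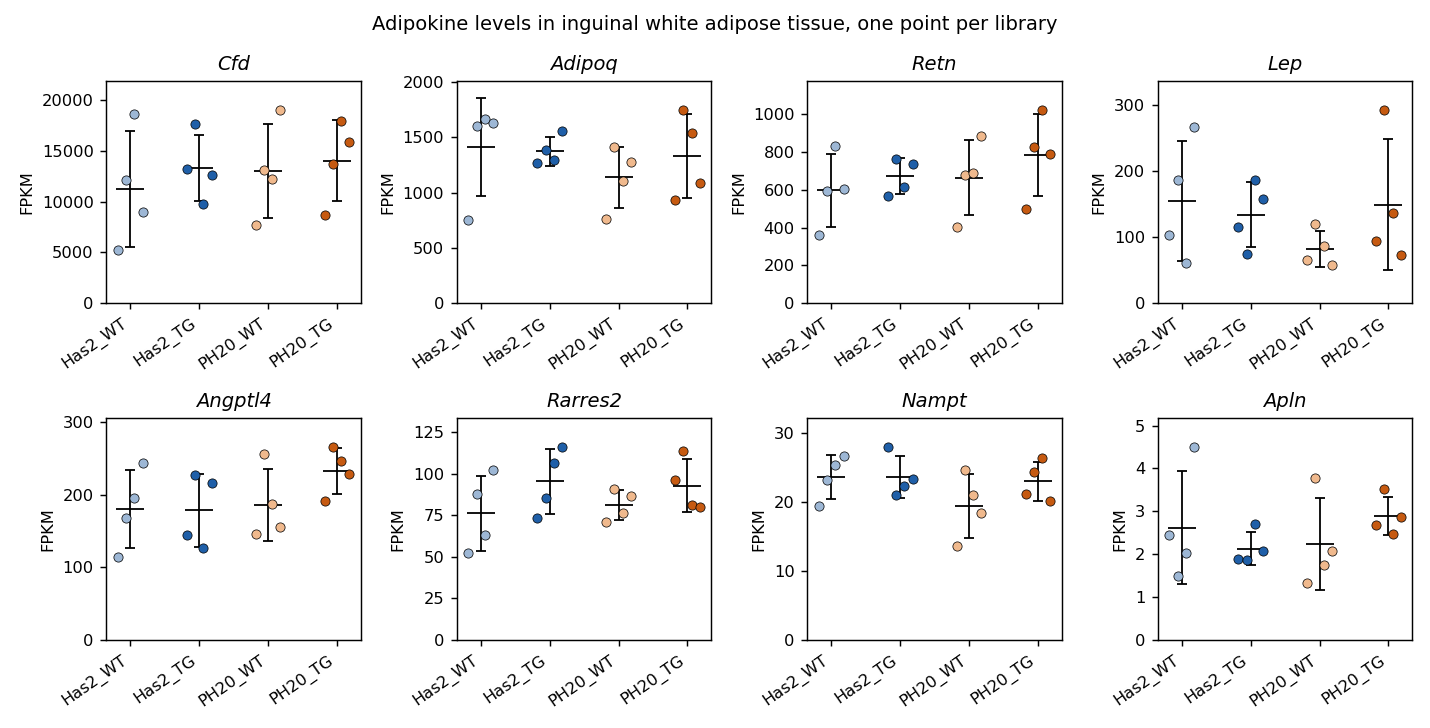
FPKM of each adipokine in iWAT, with 1 panel per gene and a linear axis from 0. Points are the 4 libraries of a group (replicates 1 to 4 from left to right), the horizontal bar is the group mean and the error bar its SD. Transgenic and control points overlap in every panel for both transgenes.

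With HA synthase on, none of the adipokines passed the test: 0 of 8 were called in Has2_TG against Has2_WT at an unadjusted p under 0.05, where 10.0% of the 12606 genes tested were called. Their median log2 fold change was 0.01, against −0.03 over all genes tested, with 5 genes higher and 3 lower, and the smallest adjusted p among them was 0.686, where 0.103% of all genes tested passed adjustment (limma, Benjamini-Hochberg over all genes tested). Under quantile normalization Adipoq (−0.01), Angptl4 (0.02) and Nampt (−0.0056) changed sign in this study. Transgenic and control ranges overlapped for each of the 8, and 6.19% of all genes tested had ranges that did not. With the hyaluronidase on, again 0 of 8 were called in PH20_TG against PH20_WT, where 6.59% of 12532 genes were. Here all 8 fold changes were above 0, with a median of 0.26 against 0.01 over all genes (3.20% of genes were called higher and 3.39% lower), and the smallest adjusted p was 0.745. This was not particular to adipokines, since of 12 adipocyte markers 11 were higher and 1 lower in PH20_TG, with a median of 0.25. All 8 adipokine ranges overlapped there as well, against 4.54% of genes without overlap. The change itself did not differ detectably between the studies for any of the 8 (0 called, against 7.70% of 12593 genes, 4.03% upward and 3.68% downward), and the smallest p for that difference was 0.184, for Apln. With voom weights on the recovered reads the counts were also 0 in all 3 tests.

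Leaving out each library in turn moved these counts in the PH20 study and not in the Has2 study. Without PH20_WT2 there were 2 calls, Apln (0.72, unadjusted p = 0.0109) and Angptl4 (0.51, unadjusted p = 0.0219), and Apln was also called for the difference between the studies (−0.91, unadjusted p = 0.0447). Without PH20_TG4 there was 1 call, Lep (0.98, unadjusted p = 0.0440). The share of all genes called in these fits is not given here, so the calls cannot be read as particular to adipokines. With the 4 B cell-rich control libraries left out, a check chosen after the data were seen, 0 of 8 were called in either study. That check called 734 of 12323 genes higher and 448 lower in the Has2 study. In the PH20 study it called 305 of 12175 genes higher and 245 lower, and Cfd (−0.22), Adipoq (−0.06) and Retn (−0.03) turned below 0.

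**Figure D2:**
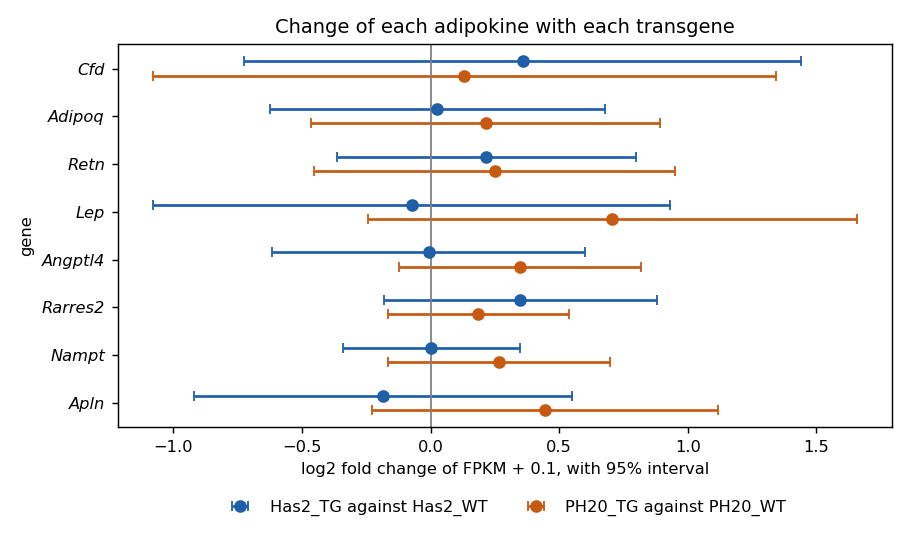
Log2 fold change of FPKM + 0.1 for each adipokine, Has2_TG against Has2_WT in blue and PH20_TG against PH20_WT in orange. Points are limma estimates from 4 against 4 libraries and bars are their 95% intervals, all of which include 0, and the 8 orange points lie to the right of 0.

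Adipoq (chr16:23146536-23158028, plus strand, ENSMUSG00000022878) was at 751, 1603, 1667 and 1630 FPKM in Has2_WT1 to Has2_WT4 and at 1270, 1381, 1291 and 1554 in Has2_TG1 to Has2_TG4. The 4 transgenic libraries lay close together, inside the range of the controls, where Has2_WT1 was far below the other 3. The log2 fold change was 0.03 ± 0.29 (SE, 95% interval −0.62 to 0.68), although the mean FPKM was lower in Has2_TG (1374 ± 129, SD) than in Has2_WT (1412 ± 442), so the direction depended on the scale. The corresponding PH20 values were 765, 1409, 1101 and 1277 FPKM in the controls and 936, 1748, 1539 and 1091 in PH20_TG1 to PH20_TG4. A pair of transgenic libraries exceeded every control, and the other two did not, for a log2 fold change of 0.21 ± 0.30 (−0.46 to 0.89). Leaving out Has2_WT1 turned the Has2 estimate to −0.25 (unadjusted p = 0.198).

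Lep (chr6:29060220-29073877, plus strand, ENSMUSG00000059201) varied most. Its FPKM was 104, 187, 60.8 and 266 in Has2_WT and 115, 75.1, 187 and 158 in Has2_TG. Every Has2_TG library fell within the control range, and the log2 fold change was −0.07 ± 0.45 (−1.08 to 0.93). In PH20_WT it was 64.8, 120, 85.8 and 58.0 FPKM, and in PH20_TG 94.1, 292, 136 and 73.2. PH20_TG2 and PH20_TG3 were above all controls, while PH20_TG4 was below PH20_WT3, and the log2 fold change of 0.71 ± 0.42 (−0.25 to 1.66; a 1.63-fold change, unadjusted p = 0.127, adjusted p = 0.745) was the largest of the 8. The interval runs up to a 3.16-fold rise. Skeletal muscle markers moved with the PH20 groups, with a summed level of 10 genes between 244 and 1020 FPKM in PH20_WT and between 9.72 and 291 in PH20_TG, and with their score as a covariate the Lep estimate was −0.02 (unadjusted p = 0.974). The score averaged 4.48 in PH20_WT and 0.74 in PH20_TG, so the fit separates it from the groups only poorly. The part of the muscle markers in the Lep values was not tested beyond this fit.

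Within groups, the SD of Lep on the log2 scale was 0.74, larger than that of 87.1% of the 12593 genes tested over all libraries, whose median was 0.35. The highest Lep library was 5.04 times the lowest. Cfd (SD 0.55), Apln (0.47), Retn (0.42), Adipoq (0.41) and Angptl4 (0.37) were also above the median gene, and Rarres2 (0.30) and Nampt (0.24) were below it. Nampt was the steadiest adipokine, with 23.6% of genes having a smaller SD.

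Because leptin and adiponectin are often read together, their ratio was formed in each library, which does not depend on scaling between libraries. Has2_WT3 held 27.4 Adipoq FPKM for each Lep FPKM, PH20_WT4 held 22.0, and at the other end PH20_TG2 held 5.98 and Has2_WT4 held 6.12. The mean log2 ratio of Lep to Adipoq was −3.34 ± 0.981 (SD, n = 4) in Has2_WT and −3.44 ± 0.584 in Has2_TG, a difference of −0.10 (exact permutation test, two-sided, p = 0.829). For PH20 it was −3.81 ± 0.435 in the controls and −3.32 ± 0.551 in PH20_TG, a difference of 0.49 (exact permutation test, two-sided, p = 0.229, adjusted over both tests 0.457). The smallest p this design allows is 0.0286. Without PH20_TG4 the difference was 0.69 (exact permutation p = 0.0286, the smallest possible for 4 against 3 as well).

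Cfd (chr10:79890853-79892655, plus strand, ENSMUSG00000061780) gave 5221, 12119, 18645 and 8985 FPKM in Has2_WT and 13195, 17652, 9761 and 12603 in Has2_TG. The controls spread over 3.57-fold and enclosed all 4 transgenic libraries, and the log2 fold change was 0.36 ± 0.48 (−0.72 to 1.44). In PH20_WT the level was 7676, 13146, 12187 and 19029 FPKM, and in PH20_TG 8655, 13672, 17946 and 15870. Both groups covered nearly the same range, with a log2 fold change of 0.13 ± 0.53 (−1.08 to 1.34). Leaving out PH20_WT1 gave −0.10 (unadjusted p = 0.857).

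Retn (chr8:3655770-3660110, plus strand, ENSMUSG00000012705) was at 362, 592, 834 and 607 FPKM in Has2_WT and 567, 765, 617 and 739 in Has2_TG. As with Cfd, Has2_WT1 was lowest and Has2_WT3 highest, and the log2 fold change was 0.22 ± 0.26 (−0.36 to 0.80). The PH20 controls were at 402, 681, 688 and 885 FPKM and PH20_TG at 498, 828, 1023 and 790. Only PH20_TG3 exceeded the highest control, and the log2 fold change was 0.25 ± 0.31 (−0.45 to 0.95).

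Rarres2 (chr6:48569696-48572789, minus strand, ENSMUSG00000009281) had the smallest p of the 8 in the Has2 study. It was at 52.3, 87.7, 63.2 and 102 FPKM in Has2_WT and 73.4, 85.5, 107 and 116 in Has2_TG. Has2_TG3 and Has2_TG4 were above every control and the other two were not, and the log2 fold change was 0.35 ± 0.24 (−0.18 to 0.88, unadjusted p = 0.174, adjusted 0.686). The PH20 values were 71.1, 90.8, 76.2 and 86.6 FPKM in controls and 96.4, 114, 81.2 and 79.9 in PH20_TG, a log2 fold change of 0.19 ± 0.15 (−0.17 to 0.54). Rarres2 shares 1027 bases with Lrrc61 on the opposite strand, and whether reads were counted by strand was not given in the sources used here, but Lrrc61 averaged 3.38 FPKM.

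Angptl4 (chr17:33773750-33781575, minus strand, ENSMUSG00000002289) was at 115, 167, 195 and 244 FPKM in Has2_WT and at 144, 226, 126 and 216 in Has2_TG, the latter within the control range (log2 fold change −0.01 ± 0.27, −0.62 to 0.60). In PH20_WT it was at 146, 255, 188 and 155 FPKM and in PH20_TG at 191, 266, 246 and 228. All 4 PH20_TG libraries were above the median control and all but PH20_TG2 were below PH20_WT2, the library whose omission gave the call above. The log2 fold change was 0.35 ± 0.21 (−0.12 to 0.82, unadjusted p = 0.127, adjusted 0.745).

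Nampt (chr12:32819545-32853349, plus strand, ENSMUSG00000020572) was at 19.4, 23.2, 25.3 and 26.6 FPKM in Has2_WT and 28.0, 21.0, 22.3 and 23.4 in Has2_TG. Its group means were nearly equal (23.6 and 23.7 FPKM), and the interval of the log2 difference, −0.34 to 0.35, was the narrowest of the 8 in this study. In the PH20 study it was at 13.6, 24.6, 21.1 and 18.5 FPKM in controls and 21.1, 24.4, 26.3 and 20.1 in PH20_TG, for a log2 fold change of 0.27 ± 0.19 (−0.16 to 0.70). PH20_WT1 was the lowest of all 16 libraries.

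Apln (chrX:48025146-48034853, minus strand, ENSMUSG00000037010) was the lowest adipokine, at 2.44, 1.49, 2.02 and 4.51 FPKM in Has2_WT and 1.89, 1.86, 2.70 and 2.07 in Has2_TG (log2 fold change −0.19 ± 0.33, −0.92 to 0.55). Has2_WT4 alone set the control mean above the transgenic one, since without it the estimate was 0.11 (unadjusted p = 0.700). In PH20_WT it was at 1.33, 3.77, 1.75 and 2.08 FPKM and in PH20_TG at 2.69, 3.51, 2.47 and 2.88, a log2 fold change of 0.45 ± 0.30 (−0.23 to 1.12). All 4 PH20_TG libraries were above 3 of the 4 controls and below PH20_WT2.

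Across libraries, the adipokines varied in partly separate sets. Each group's mean was removed from log2(FPKM + 0.1) and the remainders were correlated over the 16 libraries, as a description of genes that share libraries, scaling and tissue makeup. Cfd and Retn varied together most closely (Pearson r = 0.92), followed by Adipoq and Retn (0.85) and by Cfd and Adipoq (0.75). Angptl4 (0.74) and Nampt (0.72) also followed Adipoq. Lep had values of −0.24 with Cfd and 0.02 with Retn, and its highest was with Rarres2 (0.73), followed by Apln (0.52) and Adipoq (0.44). The lowest library of the 16 was Has2_WT1 for 5 genes (Cfd, Adipoq, Retn, Angptl4 and Rarres2), PH20_WT1 for Nampt and Apln, and PH20_WT4 for Lep. Has2_WT1 and PH20_WT1 are also the libraries with the highest summed B cell markers.

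**Figure D3:**
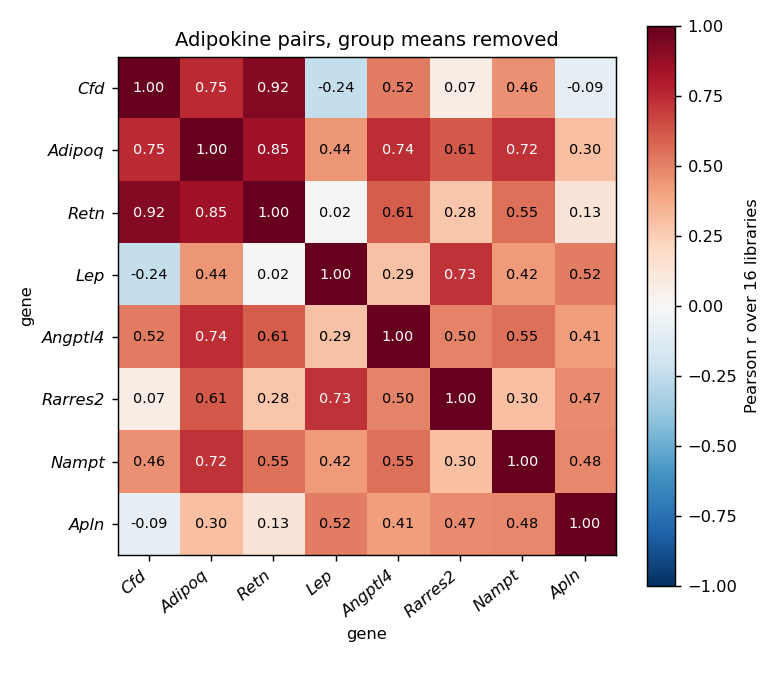
Pearson r between each pair of adipokines over 16 libraries, from log2(FPKM + 0.1) with group means removed, on a colour scale from −1 to 1. Cfd, Adipoq and Retn form a block of values from 0.75 to 0.92, and Lep is near 0 with Retn and below 0 with Cfd.

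**Figure D4:**
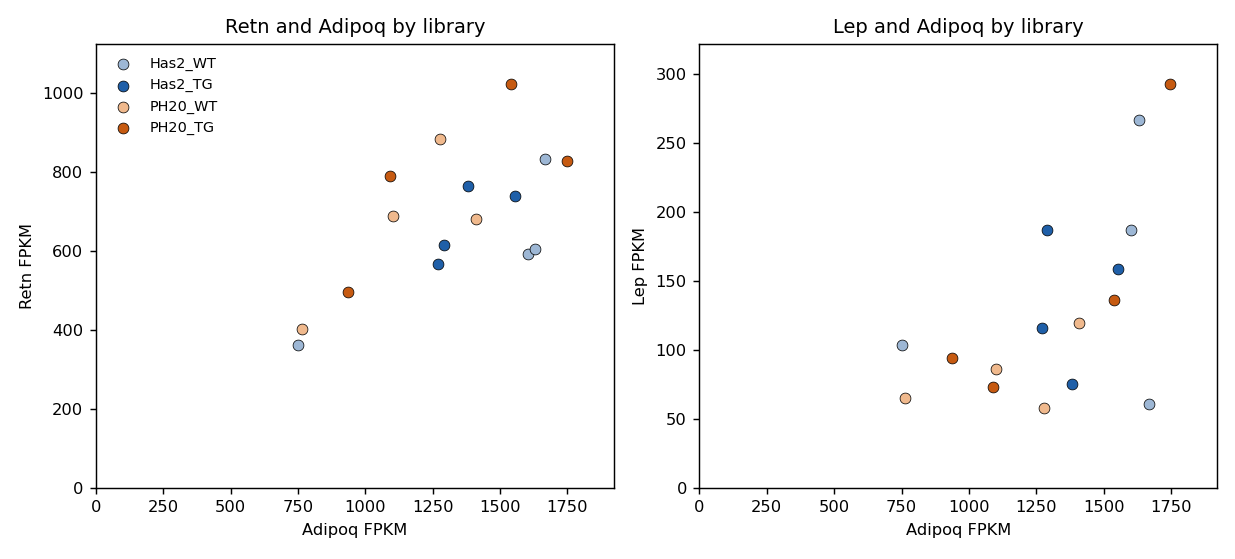
Retn against Adipoq (left) and Lep against Adipoq (right), in FPKM on linear axes from 0, with 1 point per library coloured by group. Retn rises with Adipoq over the libraries, while Lep is at 60.8 (Has2_WT3) and 292 FPKM (PH20_TG2) in the pair of libraries with the most Adipoq.

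Each adipokine was then related to the RNA of adipocyte markers, taken as the mean log2 level of the 12 adipocyte markers, none of which is among the 8. This score was 8.32 ± 0.46 in PH20_WT and 8.60 ± 0.49 in PH20_TG, and 8.78 ± 0.34 in Has2_WT and 8.65 ± 0.08 in Has2_TG (SD, n = 4 libraries). With group means removed, Adipoq had r = 0.89 (Spearman rho 0.87; permutation test within groups, n = 16, adjusted p over 8 relations 0.00272 for r and 0.00544 for rho). The same test gave r = 0.86 for Retn (rho 0.76, adjusted permutation p = 0.00541 and 0.00800), 0.81 for Nampt (rho 0.78, 0.00541 and 0.00800), 0.75 for Cfd (rho 0.64, 0.00784 and 0.0293) and 0.62 for Angptl4 (rho 0.66, 0.0118 and 0.00952). Without PH20_WT1 and PH20_TG1, the libraries farthest from the median score, these 5 values were between 0.56 and 0.85. Taken within the Has2 study or within the PH20 study alone, they were between 0.64 and 0.99.

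The other 3 adipokines did not pass. The same relation was not tested for other genes, so the share of all genes that would pass is not known. Passing it therefore cannot be read as particular to adipokines. For Lep r was 0.30 (rho 0.31, adjusted permutation p = 0.341 and 0.446), and it was −0.26 within the Has2 study and 0.66 within the PH20 study. For Rarres2 r was 0.27 (rho 0.21, adjusted permutation p = 0.341 and 0.497) and for Apln 0.36 (rho 0.17, 0.327 and 0.563). With the adipocyte score as a covariate in the Has2 comparison, Retn was called (log2 fold change 0.40, limma, unadjusted p = 0.0391). The same fit called 1088 of 12606 genes higher and 994 lower, so this call cannot be read as particular to Retn. In the PH20 comparison with this covariate, Cfd and Adipoq were −0.10 and −0.02.

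The protein-coding genes whose pattern over the 16 libraries was most like each adipokine were found on the same scale. For Adipoq these were Tspan3 (r = 0.96), Pla2g16 (0.96), a phospholipase of adipocytes, and Bcl2l2 (0.95), and for Retn they were Atraid (0.96), Ppp1r1a (0.96) and Bscl2 (0.95), which encodes seipin. Cfd was closest to Fxyd1 (0.98), Ndufa7 (0.97), a subunit gene of the respiratory chain, and Atp5d (0.97), one of ATP synthase. For Nampt the nearest were Gatb (0.95), Kdsr (0.94) and Cat (0.93), and for Angptl4 Gabarapl1 (0.92), Cryzl2 (0.90) and Acad8 (0.90). Lep was nearest to Fzd4 (0.93), Anxa6 (0.92) and Rbm28 (0.91), Apln to Ryk (0.97), Lpp (0.90) and the endothelial cadherin gene Cdh5 (0.88), and Rarres2 to Ccdc80, Lix1l and Atp6v0e2 (all 0.87).

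Gene length differed between these neighbourhoods. The 25 nearest genes had a median length of 1788 bases for Cfd, itself 922 bases long, 2186 for Retn and 3258 for Adipoq. For Lep it was 5786 and for Apln 6320, and over all 11864 protein-coding genes examined it was 4521.5. The genes that varied with Cfd were thus shorter than the typical gene and those that varied with Lep were longer, and the part of gene length in these patterns was not tested.

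The receptors through which the adipokines act were mostly called in neither study. Of 8 receptor genes tested in the Has2 study, 2 were higher (6.25% of all genes were called in this direction) and 0 lower. Gpr1, a chemerin receptor, was at 1.25, 0.460, 0.236 and 0.923 FPKM in Has2_WT and 3.89, 2.41, 2.48 and 2.30 in Has2_TG. The groups did not overlap, and the log2 fold change was 1.98 ± 0.44 (unadjusted p = 0.00125, adjusted 0.105). Cdh13, which binds multimeric adiponectin on vessels, was at 0.663 to 2.27 FPKM in Has2_WT and 2.06 to 3.79 in Has2_TG (0.98 ± 0.37, unadjusted p = 0.0239, adjusted 0.392). The adiponectin receptors Adipor1 and Adipor2 had log2 fold changes of −0.0023 and −0.26 and the main chemerin receptor Cmklr1 −0.07, none called. None of the 6 tested in the PH20 study was called (0 of 6, against 6.59% of all genes).

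For the adipsin pathway, 4 of 8 tested genes of an alternative complement list that includes receptors were called higher in Has2_TG. By comparison, 6.25% of all genes were called in this direction. In the list 0 were called lower, though 2 had fold changes below 0, and the median log2 fold change was 0.75 against −0.03 over all genes. C3, the central complement protein, was at 236, 178, 302 and 227 FPKM in Has2_WT and 381, 311, 416 and 402 in Has2_TG (0.69 ± 0.19, unadjusted p = 0.00519, adjusted 0.209), with no overlap. Cfp, properdin, which stabilises the pathway's convertase, was at 22.8 to 33.3 against 43.3 to 59.5 FPKM (0.81 ± 0.17, unadjusted p = 0.000726, adjusted 0.0841). The anaphylatoxin receptors C3ar1 (1.38 ± 0.37) and C5ar1 (1.25 ± 0.29) were also called. Adipsin itself, which was far more abundant than any of these, was not called (0.36 ± 0.48). Cfb, also in the list, was at 0.883 to 2.35 FPKM in Has2_WT and 0.473 to 1.69 in Has2_TG and was not called. In the PH20 study 0 of 7 were called, where 6.59% of all genes were, and the change differed between the studies at unadjusted p for C3 (unadjusted p = 0.00773) and Cfp (0.0357), both with adjusted p of 0.598 or more.

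Markers of other cells moved with these genes. The summed level of 8 macrophage markers was 263 to 536 FPKM in Has2_WT and 566 to 740 in Has2_TG, with 5 of 8 markers called higher, and that of 10 progenitor markers (Pdgfra, Dcn and others) was 252 to 515 against 763 to 1266, with 9 of 10 called higher. Over all genes, 6.25% were called in this direction. Among PH20 libraries, PH20_TG1 had the highest macrophage sum, 1770 FPKM, and the highest C3ar1 and C5ar1. The part of these cells in the complement and receptor values was not tested.

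**Figure D5:**
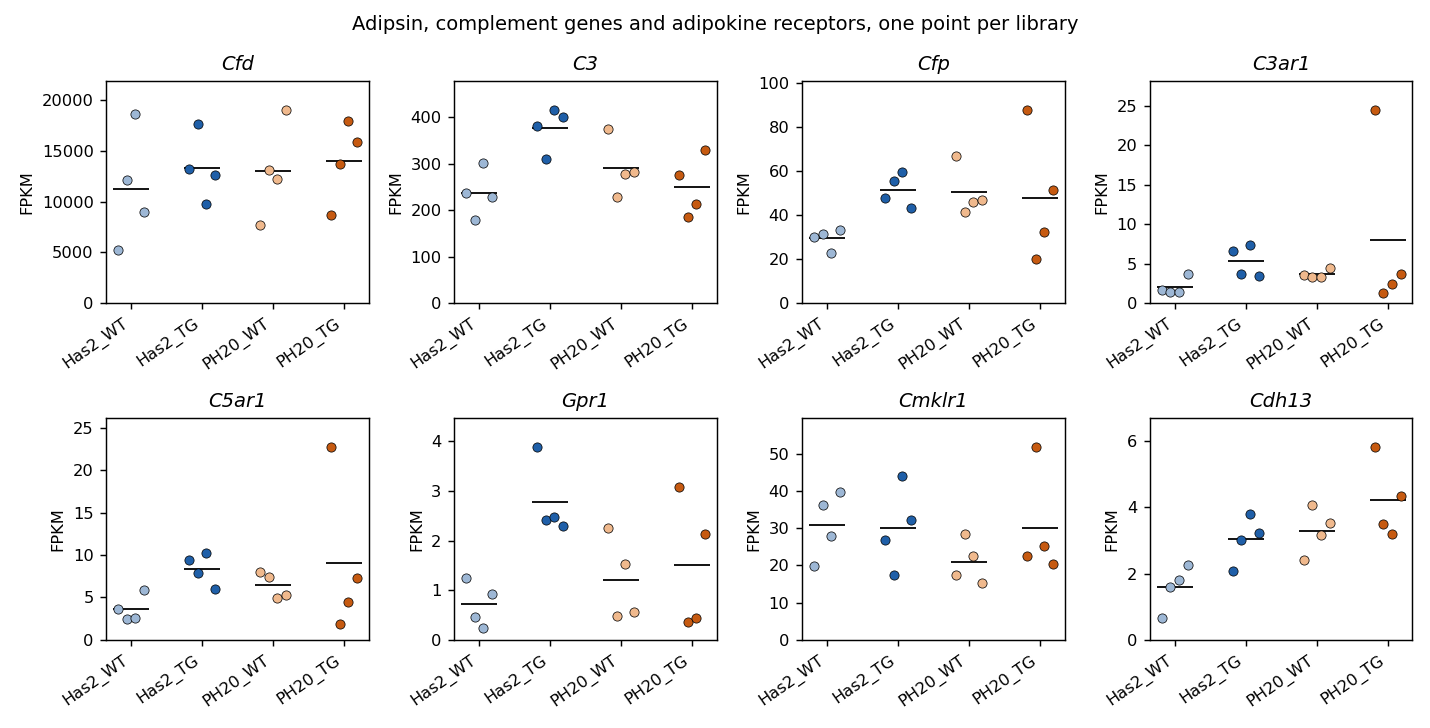
FPKM of adipsin (Cfd), 4 complement genes, the chemerin receptors Gpr1 and Cmklr1 and the adiponectin-binding Cdh13, with 1 panel per gene on a linear axis from 0. Points are the 4 libraries of each group and the bar is the group mean. For C3, Cfp, C5ar1 and Gpr1 the Has2_TG points lie above every Has2_WT point, whereas Cfd, C3ar1, Cmklr1 and Cdh13 overlap.

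Among 19 tested genes of other proteins secreted by adipose tissue, 8 were higher in Has2_TG, against 6.25% of all genes, and 0 lower, with a median log2 fold change of 0.55. Fstl1, a follistatin-like protein, was at 22.4 to 57.5 FPKM in Has2_WT and 77.4 to 186 in Has2_TG (1.78 ± 0.37, unadjusted p = 0.00075, adjusted 0.0844). Metrnl, meteorin-like, was at 6.55 to 12.6 against 16.8 to 22.2 (1.17 ± 0.21, unadjusted p = 0.000271, adjusted 0.0716). Nucb2, the nesfatin precursor (1.04), and C1qtnf6, an adiponectin relative (0.97), likewise did not overlap between groups, and Retnla (1.11), a resistin-like gene of macrophages, C1qtnf1 (1.02), Agt, angiotensinogen (0.86), and Igf1 (0.55) overlapped but were called. The progenitor and macrophage sums given above were higher in the same libraries, and their part was not tested. In the PH20 study 1 of 20 was higher, Angptl2 (0.41, unadjusted p = 0.0203), against 3.20% of all genes in this direction, and it was not called with the skeletal muscle score as a covariate (0.53, unadjusted p = 0.0628). Over all genes, that covariate lowered the calls from 401 higher and 425 lower to 188 and 103 of 12532.

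The transcription factors that drive adipocyte genes were called in 1 of 9 cases in the Has2 study, a share near the 10.0% of all genes called in either direction. Cebpd, an early factor of adipogenesis, was higher (0.96 ± 0.21, unadjusted p = 0.00125, adjusted 0.105), at 4.73 to 6.89 FPKM in Has2_WT and 8.37 to 15.7 in Has2_TG. Pparg and Cebpa, which maintain the adipocyte state, had log2 fold changes of 0.01 and −0.09, and 0 of 9 were called in the PH20 study, against 6.59% of all genes. For adiponectin assembly in the endoplasmic reticulum, 0 of 4 genes were called in either study, with Gstk1 at 0.16 and −0.18 and Plod3 at 0.07 and 0.26 in the Has2 and PH20 studies.

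Calls among genes linked to the other adipokines were set against 3.75% of all genes called lower in Has2_TG and 3.20% called higher in PH20_TG. In leptin signalling, 1 of 5 was lower in Has2_TG, the adaptor Sh2b1 (−0.42, unadjusted p = 0.033). In the lipoprotein lipase list, 1 of 7 was lower, Angptl8 (−0.68, unadjusted p = 0.04), a relative of Angptl4 that also acts on the lipase, while Lpl itself was not called (0.40, unadjusted p = 0.166). In NAD metabolism 2 of 10 were lower, Parp1, an NAD consumer (−0.78, unadjusted p = 0.00257, no overlap), and the NAD synthetase Nadsyn1 (−0.81, unadjusted p = 0.0256), where 3.75% of all genes were called lower. In the PH20 study 1 of 10 was higher, Nmnat1 (0.56, unadjusted p = 0.0334), which follows Nampt in the salvage route, and 0 of 5 and 0 of 7 were called in the other two lists. None of these passed adjustment.

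Target genes of signals known to raise or lower adipokine transcripts were also examined, while the signals themselves were not measured. Of 8 PPAR targets, a group to which Angptl4 itself belongs, 1 was called lower in Has2_TG, Ucp3 (−0.46, unadjusted p = 0.0407), and 2 were called higher in PH20_TG, the lipid droplet genes Plin2 (0.65, unadjusted p = 0.0207) and Hilpda (0.68, unadjusted p = 0.0177). Over all genes, 3.75% were called lower in Has2_TG and 3.20% higher in PH20_TG. Called or not, 1 PPAR target was higher and 7 were lower in Has2_TG (median log2 fold change −0.41). In PH20_TG 5 were higher and 3 lower (median 0.13). Skeletal muscle markers also moved with these groups, with 9 of 9 called lower in PH20_TG (3.39% of all genes were) and a median log2 fold change of −4.32. With their score as a covariate neither Plin2 (0.50, unadjusted p = 0.235) nor Hilpda (0.41, unadjusted p = 0.306) was called. That fit called 188 of 12532 genes higher and 103 lower, against 401 and 425 without the score. The score was 3.53 to 5.35 in PH20_WT and −1.59 to 3.76 in PH20_TG, so the fit separates it from the groups only poorly. Of 7 glucocorticoid targets, 0 were called in the Has2 study and 1 was called higher in PH20_TG, against the same shares. This was Fkbp5, at 1.91 to 3.07 FPKM in PH20_WT and 3.76 to 6.63 in PH20_TG, without overlap (0.89 ± 0.22, unadjusted p = 0.00277, adjusted 0.664). Called or not, all 7 were higher in PH20_TG (median 0.35), and 4 were higher and 3 lower in Has2_TG (median 0.35). Of 7 hypoxia targets, 2 were called lower in Has2_TG, Pdk1 (−0.87, unadjusted p = 0.00923) and the glucose transporter gene Slc2a1 (−0.91, unadjusted p = 0.0189), where 3.75% of all genes were called lower, and 0 were called in the PH20 study. The hypoxia list as a whole was not lower in Has2_TG, with 4 genes higher and 3 lower (median 0.09). In PH20_TG 3 of its genes were higher and 4 lower (median −0.01). No gene of any of these lists passed adjustment over all genes in either study.

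These calls were not equally firm. Across 20 alternatives, which changed 1 setting or left out libraries, the Has2 calls of Gpr1, C3, Cfp, C3ar1, C5ar1, Fstl1, Nucb2, C1qtnf6, Cebpd, Parp1 and Pdk1 were kept in all 20, as was the PH20 call of Fkbp5. Other calls were lost when single libraries were left out: Cdh13 without Has2_TG3 (0.86) or Has2_TG4 (0.94), Nadsyn1 without Has2_WT3 (−0.81), Has2_WT4 (−0.64) or Has2_TG3 (−0.56), and Slc2a1 without Has2_WT1 (−0.75), Has2_WT2 (−0.79) or Has2_TG2 (−0.77). Angptl8 and Ucp3 were lost without Has2_WT3 (−0.48 and −0.35), Has2_WT4 (−0.70 and −0.44), Has2_TG3 (−0.54 and −0.31) or Has2_TG4 (−0.52 and −0.46). Sh2b1 was lost without any 1 of 5 libraries (−0.41 to −0.34) and Igf1 without any 1 of 6 (0.39 to 0.55). For PH20_TG, Nmnat1 was lost without PH20_WT1, PH20_WT4, PH20_TG3 or PH20_TG4 (0.42 to 0.55), and Plin2 without PH20_TG3 (0.58). Other settings also ended calls. In 1 fit of all 16 libraries, Metrnl (1.17, unadjusted p = 0.0595), Retnla (1.11, unadjusted p = 0.0722), Angptl8 (−0.68, unadjusted p = 0.0995) and Ucp3 (−0.46, unadjusted p = 0.160) were not called. The adipocyte score as a covariate ended the calls of Angptl8 (−0.52), Ucp3 (−0.34) and, for PH20_TG, Nmnat1 (0.45), voom weights that of Angptl8 (−0.64) and quantile normalization that of Igf1 (0.55). The B cell score ended those of Igf1 (0.35), Sh2b1 (−0.26), Agt (0.56), Cdh13 (0.53) and Slc2a1 (−0.52) in the Has2 study and those of Plin2 (0.22), Angptl2 (0.40), Hilpda (0.67) and Nmnat1 (0.46) in the PH20 study. With the 4 B cell-rich libraries left out, Retnla (0.70), C1qtnf1 (0.86), Agt (0.56), Igf1 (0.35), Cdh13 (0.53), Sh2b1 (−0.26) and Slc2a1 (−0.49) were no longer called in the Has2 study, nor Plin2 (0.37), Angptl2 (0.40), Hilpda (0.72) and Nmnat1 (0.47) in the PH20 study.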

How the data were processed

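Reads per gene from 16 iWAT libraries were processed by the authors with FastQC (0.11.9), STAR (2.7.9a, GRCm38, GENCODE, GeneCounts) and MultiQC (1.12), and the authors deposited FPKM values for 54532 genes with gene lengths in bases. The FPKM totals carry a scaling of 0.886 to 1.14 between libraries. Whole reads were recovered within 0.01 for 100% of values. The authors used DESeq2 for their own tests, which was not used here.

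Each study was fitted on its own 8 libraries with limma (3.58.1, R 4.3.3) on log2(FPKM + 0.1), with a variance trend, keeping genes that averaged 50 reads or more, and the difference between studies was fitted on all 16. Such fold changes understate the change of low genes. A call is an unadjusted p under 0.05, the threshold of the study's methods, and Benjamini-Hochberg values run over all genes tested. The procedure was tested on simulated data. Ratios were tested by exact permutation over 70 assignments and correlations by 100000 permutations within groups (Python 3.11.15, SciPy 1.17.1). Named genes are the 8 adipokines, every called gene of each pathway list (otherwise the 2 of highest FPKM), and the 3 protein-coding genes most correlated with each adipokine. The named adipokines and lists were chosen with earlier results of these data known. Of the list genes, 3 are not reported here, and they are left out of the counts. Alternatives covered the pseudocount, the minimum, 3 scalings or weightings, marker covariates, the replicate block and each library left out.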

Additional observations from a re-analysis of the deposited data

Results flagged for a closer look

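In groups of 4 libraries, the values of each adipokine and the ratio of Lep to Adipoq were searched for a library far from the others, and 2 of 36 groups held one, where chance alone gives about 1 in 20. Adipoq in Has2_WT1, at 751 FPKM, lay far below the other 3 control libraries of the Has2 study. The log2 ratio of Lep to Adipoq in PH20_WT4, at −4.46, lay far below the other 3 control libraries of the PH20 study.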

How the results depend on the processing

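For single adipokines, 272 estimates under other settings included 244 with the same direction and side of the threshold, 3 newly past it and 25 with a changed sign, and of 256 estimates with 1 library left out, 228, 4 and 24 did so. The cause was not tested.

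With the adipocyte score as a covariate 1 adipokine was called in the Has2 study, Retn, where 1088 of 12606 genes were called higher and 994 lower. The sign turned for Angptl4 in that study (0.14), for Cfd (−0.10) and Adipoq (−0.024) in the PH20 study, and for Adipoq (0.21) and Retn (0.36) in the difference between studies. With the B cell score it turned for Adipoq (−0.27), Retn (−0.073) and Nampt (−0.14) in the Has2 study and for Cfd (−0.34), Adipoq (−0.13), Retn (−0.14) and Apln (−0.025) in the PH20 study. Leaving out the 4 B cell-rich libraries, chosen after seeing the data, gave −0.27 for Adipoq, −0.093 for Retn and −0.14 for Nampt in the Has2 study and −0.22 for Cfd, −0.060 for Adipoq and −0.031 for Retn in the PH20 study. With the skeletal muscle score Lep (−0.021) and Rarres2 (−0.066) turned in the PH20 study and Cfd (−0.15) in the difference. Quantile normalization turned Adipoq (−0.010), Angptl4 (0.023) and Nampt (−0.0056) in the Has2 study and Retn (0.11) in the difference.

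With 1 library left out, the number of adipokines called was 0 to 0 in the Has2 study, 0 to 2 in the PH20 study and 0 to 1 for the difference. The share of all genes called in those fits is not given here. The log2 ratio of Lep to Adipoq differed by −0.58 to 0.15 in the Has2 study and 0.25 to 0.69 in the PH20 study. Log2 fold changes ranged in the Has2 study over −0.25 to 0.13 for Adipoq, −0.0048 to 0.40 for Retn, −0.45 to 0.26 for Lep, −0.21 to 0.16 for Angptl4, −0.087 to 0.064 for Nampt and −0.40 to 0.11 for Apln, and in the PH20 study over −0.10 to 0.35 for Cfd. The difference between studies ranged over −0.092 to 0.52 for Cfd, −0.25 to 0.19 for Retn and −0.0023 to 0.32 for Rarres2. The complement count stayed at 4 to 5 and that of other secreted factors at 6 to 10 under every setting and with each library left out.

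Deviations of libraries with the same replicate number had r between −0.18 and 0.13 in the Has2 study. In the PH20 study r was 0.35 and 0.42 for numbers 1 and 2 and −0.03 and −0.04 for numbers 3 and 4. Only some pairs deviated together and the labels tie the numbers to nothing shared, so the libraries were not treated as pairs. With a replicate block 2 adipokines were called in the PH20 study, Lep (0.71, unadjusted p = 0.0063) and Angptl4 (0.35, unadjusted p = 0.0414), and 0 in the others, while Angptl8 (unadjusted p = 0.0786) and Ucp3 (unadjusted p = 0.0955) were no longer called in the Has2 study. The block left 633 genes called higher and 669 lower in the PH20 study, against 401 and 425 without it. The same PH20 counts were 188 and 103 with the muscle score, 685 and 602 with the adipocyte score, 305 and 245 without the B cell-rich libraries and 736 and 569 without a minimum of reads. In the Has2 study they were 788 and 473, and 1088 and 994 with the adipocyte score. Apln had the fewest reads, and 4 libraries a group limit all 8. Of 440 estimates for the 22 other genes called in the Has2 study, 391 stayed called, 49 did not and 0 changed sign, and of 100 for 5 genes in the PH20 study, 83, 17 and 0 did so.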
